A study of Mus musculus with 16 samples.

Results

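The 8 genes followed here belong to the myelinating Schwann cell. They were measured in skeletal muscle of mice and are Mbp, Pmp22, Prx, Mag, Ncmap, Cnp, S100b and Sox10. They were chosen by symbol, all 8 were found once among the 55487 genes of the count table, and all 8 were among the 17490 genes with enough counts to be tested. The table holds 16 RNA-seq libraries in 4 groups of 4, from wild-type (WT) mice or CHCHD4 Tg mice (Tg in what follows), each with treadmill training or with no training. CHCHD4 is an oxidoreductase of the mitochondrial intermembrane space. The labels give the tissue as skeletal muscles and the genotype as WT or CHCHD4 Tg. Which muscle was taken, the strain, the age, the promoter of the transgene and the length of training are not given in the sources used here. The labels also do not tie a library to an animal, so each p-value reflects only how far these libraries spread, which may be technical.

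The genes lie on 6 chromosomes of GRCm38, all annotated as protein coding. Pmp22 (ENSMUSG00000018217.12) spans chr11:63128982-63159547 and Cnp (ENSMUSG00000006782.16) chr11:100574904-100591729. Prx (ENSMUSG00000053198.14) spans chr7:27499324-27520214, and Mag (ENSMUSG00000036634.15) chr7:30899176-30914873. Mbp (ENSMUSG00000041607.17) spans chr18:82475146-82585637, Sox10 (ENSMUSG00000033006.10) chr15:79154908-79165240, S100b (ENSMUSG00000033208.7) chr10:76253853-76261159 and Ncmap (ENSMUSG00000043924.16) chr4:135369576-135398227. Mag, Sox10 and Ncmap lie on the reverse strand and the other 5 on the forward strand.

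Schwann cells ensheath the axons of peripheral nerve, and in muscle they are found along the intramuscular nerve branches. Those that myelinate wrap their membrane around an axon in many layers, which are held together by small membrane and cytoplasmic proteins and are fed by lipid synthesis. The transcription factor SOX10 is needed for the whole lineage and acts with EGR2 on myelin genes. RNA of whole muscle therefore includes some from Schwann cells. In such bulk samples fewer cells of a type and less RNA per cell cannot be told apart.

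The stretches just upstream of the genes are shown for 4 of them, 2 with and 2 without the SOX core motif. They come from RefSeq promoter windows on GRCm38.p6, which run from 250 bases before to 50 after an annotated start. Windows of 6 of the 8 genes were searched, 12 windows in all, and none of Mbp and Sox10. Whether the windows of Mbp and Sox10 hold a motif was not tested. Only bases upstream of both the RefSeq and the GENCODE start are printed, 5′ to 3′ on the gene's strand, with the SOX core in capitals.
Cnp, chr11:100574689-100574903, forward strand: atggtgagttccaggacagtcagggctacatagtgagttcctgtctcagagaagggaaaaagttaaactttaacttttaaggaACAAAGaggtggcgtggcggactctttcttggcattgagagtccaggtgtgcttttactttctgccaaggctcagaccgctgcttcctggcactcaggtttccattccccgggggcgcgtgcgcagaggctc
Mag, chr7:30914923-30915172, reverse strand: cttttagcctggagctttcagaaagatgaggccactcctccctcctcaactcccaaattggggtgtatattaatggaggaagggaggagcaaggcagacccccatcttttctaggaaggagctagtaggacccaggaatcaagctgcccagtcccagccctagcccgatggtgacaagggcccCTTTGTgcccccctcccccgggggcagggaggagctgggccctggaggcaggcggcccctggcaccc
Prx, chr7:27499074-27499323, forward strand: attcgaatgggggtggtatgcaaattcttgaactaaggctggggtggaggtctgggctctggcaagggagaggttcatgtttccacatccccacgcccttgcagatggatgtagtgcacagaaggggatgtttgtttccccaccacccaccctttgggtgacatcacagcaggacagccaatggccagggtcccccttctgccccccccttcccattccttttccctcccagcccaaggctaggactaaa
Pmp22, chr11:63128732-63128981, forward strand: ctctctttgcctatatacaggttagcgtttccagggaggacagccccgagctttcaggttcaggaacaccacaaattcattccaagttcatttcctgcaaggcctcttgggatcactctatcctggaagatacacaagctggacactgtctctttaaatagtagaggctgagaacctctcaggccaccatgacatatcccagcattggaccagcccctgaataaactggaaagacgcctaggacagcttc

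The SOX core was searched as ACAAAG on both strands and the EGR core as GTGGGCG on both strands; their letters do not overlap. Among the 12 windows, 3 held the SOX core, 1 of Cnp and 2 overlapping windows of Mag that share a single match at chr7:30914984-30914989. The match of Cnp lay at chr11:100574772-100574777. No window held the EGR core. Of all 32851 promoter windows of the table, 18.7% held the SOX core and 7.97% the EGR core. These matches describe letters in a window and say nothing of binding.

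Library totals ran from 40888325 to 61703724 counts. Chchd4 separated the genotypes in every library, at 6.87 to 8.98 CPM (counts scaled to library size with TMM factors) in WT and 18.1 to 22.2 CPM in Tg libraries. The members were low in abundance: together they made up 24.2 to 66.2 CPM of a library. Counts per library ran from 413 to 1419 for Pmp22, from 199 to 1034 for Mbp, from 131 to 615 for Prx and from 172 to 351 for Cnp. They were 12 to 60 for Sox10, 22 to 73 for S100b, 7 to 36 for Mag and 8 to 61 for Ncmap. Counting error alone is thus 28.9% at the lowest and 12.9% at the highest Sox10 count, and 37.8% at the lowest Mag count, against 7.09% at the lowest Mbp count.

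Peripheral myelin transcripts were measured in every library, and central ones were at or near 0. Prx, whose protein belongs to the myelin of peripheral nerve, measured 2.33 to 11.2 CPM. Markers of oligodendrocytes, the myelinating cells of the brain and spinal cord, were scarce: of 6 markers none had enough counts to be tested, Olig2 had 0 counts in all libraries, and their sum stayed between 0.0197 and 0.181 CPM. Mog, an oligodendrocyte surface protein gene, had 0 to 4 counts a library. Of 9 axon and motor neuron markers 3 had enough counts to be tested, with 15 to 48 counts a library for Stmn2, 19 to 66 for Uchl1 and 2 to 25 for Prph. Among the others, Chat and Snap25 had 0 counts in every library and Nefl 0 to 1.

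Per kilobase of exon, Pmp22, which encodes a small tetraspan protein of compact myelin, was the most abundant member at 6.05 ± 1.90 CPM per kb (SD, n = 16 libraries). Cnp, a nucleotide phosphodiesterase gene of non-compact myelin that many other cells also express, followed at 1.29 ± 0.210, and Mbp, the cytoplasmic basic protein that compacts myelin, at 0.999 ± 0.438. Prx, the gene of periaxin, which links the Schwann cell membrane to its cytoskeleton, stood at 0.883 ± 0.395. S100b, a calcium-binding protein gene also expressed by fat cells, followed at 0.490 ± 0.163, Sox10 at 0.206 ± 0.0791, Ncmap, a gene of a myelin-associated membrane protein, at 0.188 ± 0.111, and Mag, a sialic acid-binding adhesion gene of the membrane next to the axon, at 0.0770 ± 0.0324. Between neighbouring members in this order, the steps from Pmp22 to Cnp and from S100b to Sox10 were larger than the SDs around the means, and the SDs of the other neighbours overlapped. Exon length here is the union over all annotated transcripts, which understates genes with many alternative exons.

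The most uniform feature of the members was the library in which they were high. All 8 were at their highest in Tg untrained replicate 3, where 8.82% of all tested genes were at their highest. In Tg trained replicate 3, 6 of the 8 were at their second highest, against 5.81% of all tested genes. Summed, the members reached 66.2 CPM in Tg untrained replicate 3 and 51.0 CPM in Tg trained replicate 3, followed by 43.1 CPM in Tg untrained replicate 2 and 42.7 CPM in WT trained replicate 4. The lowest sums were 24.2 CPM in WT untrained replicate 2 and 24.95 CPM in WT trained replicate 2. Averaged over the 8 genes on the log scale, Tg untrained replicate 3 stood at 2.09 times and Tg trained replicate 3 at 1.61 times the mean library.

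**Figure D1:**
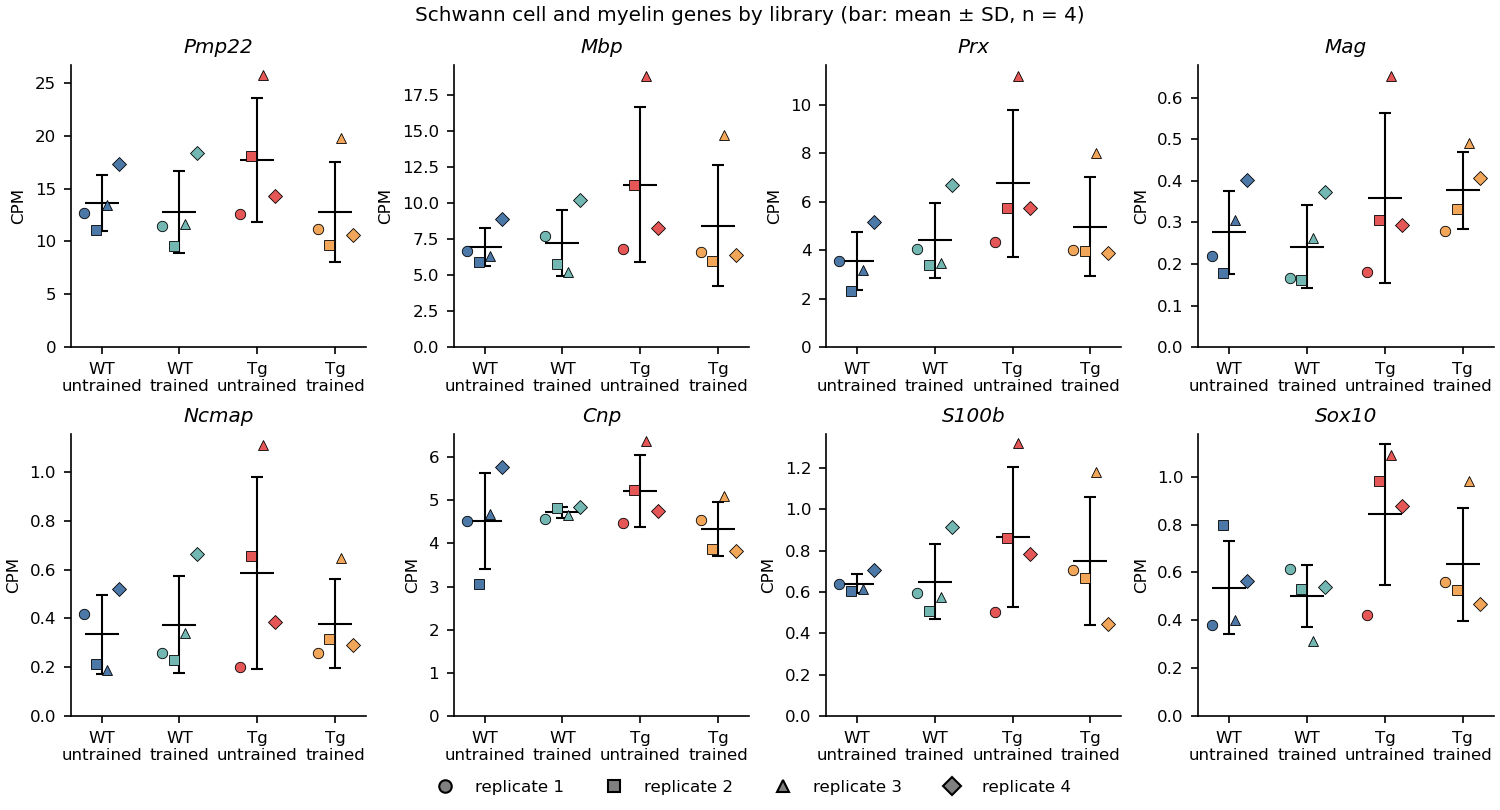
CPM (y axis, linear from 0) of each of the 8 genes in the 16 libraries, grouped on the x axis by genotype and training. Points are libraries, their shape gives the replicate number, and bars are the mean ± SD of 4 libraries. Tg untrained replicate 3 is the highest point in all 8 panels.

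Among the genes of compact myelin, Mbp measured 6.63, 5.93, 6.32 and 8.86 CPM in untrained WT replicates 1 to 4 and 7.72, 5.74, 5.21 and 10.2 CPM in trained WT replicates 1 to 4. It measured 6.78, 11.2, 18.8 and 8.28 CPM in untrained Tg and 6.59, 5.98, 14.7 and 6.39 CPM in trained Tg libraries. The high libraries were Tg untrained replicates 2 and 3, Tg trained replicate 3 and WT trained replicate 4, and every group overlapped the others. Pmp22 measured 12.7, 11.1, 13.5 and 17.3 CPM in untrained WT and 11.5, 9.56, 11.7 and 18.4 CPM in trained WT replicates 1 to 4. It reached 12.6, 18.1, 25.8 and 14.3 CPM in untrained Tg and 11.2, 9.63, 19.8 and 10.6 CPM in trained Tg libraries. The same 3 Tg libraries and WT trained replicate 4 were its 4 highest.

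Genes of the membrane next to the axon and of the Schwann cell cytoskeleton were also highest in Tg untrained replicate 3. Prx measured 3.57, 2.33, 3.18 and 5.17 CPM in untrained WT replicates 1 to 4, 4.05, 3.4, 3.48 and 6.70 CPM in trained WT, 4.33, 5.75, 11.2 and 5.76 CPM in untrained Tg and 4.03, 3.98, 8.02 and 3.88 CPM in trained Tg libraries. Untrained Tg libraries lay higher than untrained WT libraries for the most part, but WT untrained replicate 4 exceeded Tg untrained replicate 1. Mag measured 0.178 to 0.403 CPM in untrained WT, 0.162 to 0.374 in trained WT, 0.180 to 0.653 in untrained Tg and 0.279 to 0.492 in trained Tg libraries. Ncmap spanned the widest range of the 8, 5.87-fold, from 0.189 CPM in WT untrained replicate 3 to 1.11 CPM in Tg untrained replicate 3. All 4 groups overlapped for both genes. Cnp spanned the narrowest range, 2.09-fold, from 3.06 CPM in WT untrained replicate 2 to 6.37 CPM in Tg untrained replicate 3, and its trained WT libraries lay between 4.57 and 4.85 CPM.

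Of the 2 members that mark the Schwann lineage at large, S100b was even in untrained WT libraries (0.604 to 0.705 CPM) and ranged from 0.509 to 0.915 CPM in trained WT, from 0.501 to 1.32 in untrained Tg and from 0.446 to 1.18 in trained Tg libraries. Sox10 measured 0.379, 0.799, 0.401 and 0.564 CPM in untrained WT replicates 1 to 4, 0.614, 0.532, 0.314 and 0.541 CPM in trained WT, 0.421, 0.982, 1.09 and 0.878 CPM in untrained Tg and 0.558, 0.526, 0.983 and 0.466 CPM in trained Tg libraries. It was high in Tg untrained replicates 2 to 4 and Tg trained replicate 3. In WT untrained replicate 2 it departed from the other members: Sox10 had rank 5 of 16 there, with 45 counts (exact 95% Poisson interval 0.583 to 1.07 CPM, counting error only), while this library was among the 3 lowest for 5 of the 8 members. That library also had the largest TMM scaling factor of the series, 1.285, and its 14.9 CPM of Alb, a liver transcript, was above the 10 CPM that 3 libraries passed. The other libraries above it were Tg untrained replicate 2 (15 CPM) and WT trained replicate 4 (35.5 CPM), which had ranks 3 and 4 in the summed level of the members. In WT untrained replicate 2 the markers of the neuromuscular junction summed to 105 CPM, against 35.6 to 58.3 CPM in the other groups. Musk (71.0 CPM) and Chrna1 (18.5 CPM) were at their highest there, and Chrne, Dok7, Colq and Etv5 of the same list at their lowest. The part of scaling, Alb or these markers in the member values was not tested.

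**Figure D2:**
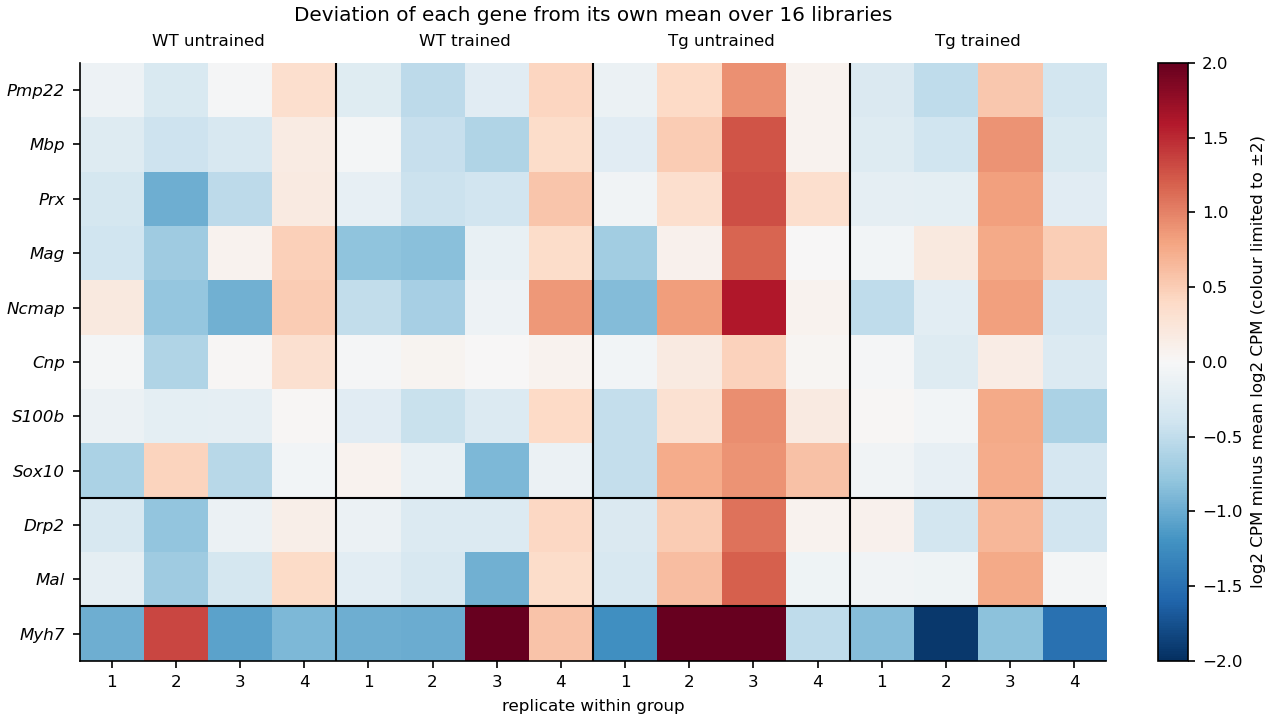
Colour shows log2 CPM of each gene (rows) minus its own mean over the 16 libraries (columns, by group and replicate), with colour limited to ±2. The 8 members, 2 other Schwann cell genes (Drp2 and Mal) and, in the last row, Myh7 are shown. The column of Tg untrained replicate 3 is above the mean in every row.

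Ratios among Mbp, Pmp22 and Prx were steadier than their levels. Mbp spanned 3.60-fold and Prx 4.8-fold over the 16 libraries, but Mbp relative to Prx spanned 1.77-fold, from 1.44 to 2.55. The SD over libraries was 0.521 log2 units for Mbp and 0.561 for Prx, and 0.207 for their ratio. Mbp relative to Pmp22 ran from 0.445 to 0.742, with an SD of 0.205 log2 units. Cnp did not follow as closely: the ratio of Mbp to Cnp had an SD of 0.397 log2 units and ran from 1.12 to 2.95. The ratios of Mbp to Sox10 (SD 0.370) and to Mag (SD 0.428) varied more too, at counts where counting error is large.

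Among the 10 genes of at least 1 CPM whose log2 CPM over the 16 libraries was most like the mean standardised profile of the 8 members were Drp2, Gatm, Plekha4, Mal, Sptbn5, Kif1a, Itgb4 and Aatk. Pearson's r was 0.956 for Drp2 and 0.902 for Aatk, and Spearman's rho 0.862 and 0.903, given as a description over libraries that differ in depth. Drp2 encodes the dystrophin-related protein that binds periaxin, and Mal encodes a myelin membrane protein. Of these, Drp2, Mal and Itgb4 were on the lists of nerve genes used here, and the other 5 were not. Without Tg untrained replicate 3 and Tg trained replicate 3, r over the other 14 libraries was 0.900 for Drp2 and 0.829 for Aatk.

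Other genes of the Schwann cell were taken from 5 lists by role, 47 genes of which 40 were tested. Of these 40, 23 were at their highest in Tg untrained replicate 3, against 8.82% of all tested genes. They were 7 of 9 genes of compact myelin (among them Mal, Gjc3 and Cldn19, which encodes a claudin of the Schwann cell), 6 of 10 genes of axon contact, node and cytoskeleton, 5 of 5 transcription factors, 3 of 9 receptors and signals, and 2 of 7 genes of myelin lipid synthesis. Several listed genes are also made by muscle fibres: Cryab, a small heat shock protein, averaged 200 CPM and Art3 62.8 CPM, and neither was highest in that library.

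The same library was also high in markers of other tissue. Of 6 markers of perineurial and endoneurial cells, the sheath and stroma of nerve, 4 were highest in Tg untrained replicate 3. The sum of the 6 was 20.7 CPM there, against 10.3 to 15 CPM in the libraries of the other groups. Itgb4, also among the 10 genes most like the members, gave 9.66 CPM of that sum. Sox9 (0.653 CPM) and Osr2 (0.581 CPM) were not highest there. Of 6 tendon and cartilage markers, 5 were highest in it, with a sum of 205 CPM against 22.8 to 144 CPM in the other groups. Of 5 smooth muscle and pericyte markers 3 were highest in it, of 8 slow-twitch markers 2, and of 6 fibroblast markers 1, with the highest fibroblast sum of the series, 879 CPM. The smooth muscle and pericyte sum had only rank 9 of 16 there, at 359 CPM. This library was also the highest for 2 of 6 markers of the neuromuscular junction and for 1 of 3 tested axon markers. Of all tested genes 8.82% were highest in it. No satellite cell, adipocyte, endothelial, macrophage or liver marker was highest in it. In Tg trained replicate 3 the perineurial and endoneurial sum was second highest at 15 CPM, 7.16 CPM of it from Itgb4. The tendon sum had rank 8 there at 110 CPM. The part of these tissues in the level of the members was not tested.

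Myh7, the slow-twitch myosin heavy chain gene and a sign of which muscle or part of it was sampled, did not line up with the members over all libraries. Myh7 measured 2.26, 11.2, 2.12 and 2.38 CPM in untrained WT replicates 1 to 4, 2.25, 2.22, 29.7 and 6.61 CPM in trained WT, 1.90, 64.3, 42.1 and 3.13 CPM in untrained Tg and 2.47, 1.16, 2.5 and 1.57 CPM in trained Tg libraries. Of the 4 libraries above 10 CPM, Tg untrained replicates 3 and 2 had ranks 1 and 3 in the summed level of the members, and WT trained replicate 3 and WT untrained replicate 2 had ranks 12 and 16. Tg trained replicate 3, second in the members, had 2.5 CPM of Myh7. No correlation is given, since Myh7 was far higher in Tg untrained replicates 2 and 3 and WT trained replicate 3 than in the other libraries. The limit of 10 CPM was a chosen one. WT untrained replicate 2 (11.2 CPM) lay close above it and WT trained replicate 4 (6.61 CPM) below it.

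**Figure D3:**
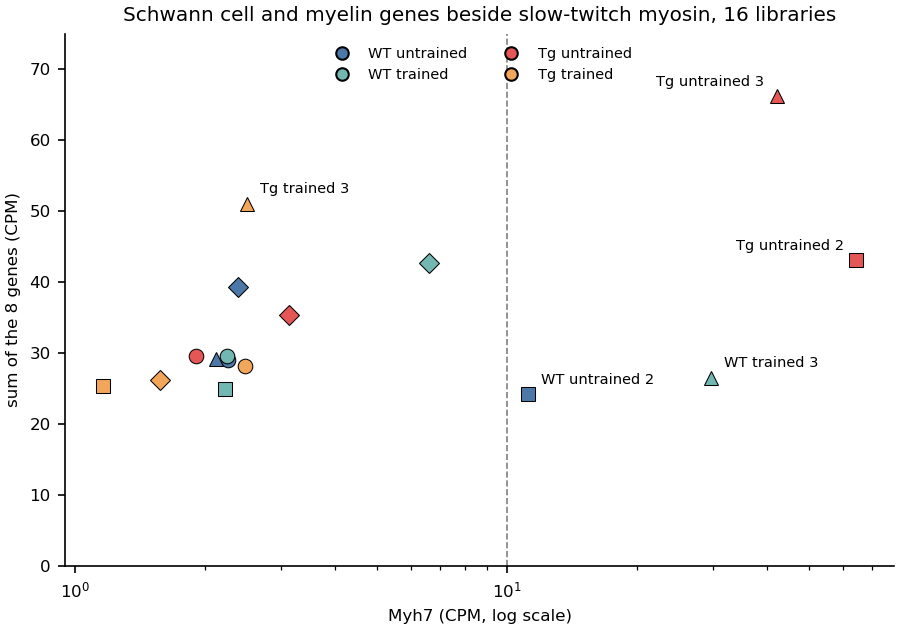
Sum of the 8 genes in CPM (y axis) against Myh7 in CPM (x axis, log scale) for 16 libraries, coloured by group, with the point shape giving the replicate number and the dashed line at 10 CPM. Of the 4 libraries right of the line, 2 have sums of 66.2 and 43.1 CPM and 2 have sums of 24.2 and 26.6 CPM.

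Without training, all 8 members had higher fitted levels in Tg than in WT muscle, and none was called. In the edgeR quasi-likelihood model over 16 libraries 0 of 8 passed an adjusted p of 0.05, a threshold that 0.743% of all tested genes passed. The median log2 fold change (log2FC) of the members was 0.54, against 0.0042 over all tested genes, of which 50.8% were positive. Prx had the largest at 0.93 (SE 0.328, adjusted p = 0.190, edgeR), from 3.56 ± 1.19 to 6.75 ± 3.02 CPM (SD, n = 4). Ncmap measured 0.80 (SE 0.490), Mbp 0.70 (SE 0.327), Sox10 0.64 (SE 0.319), S100b 0.44 (SE 0.297), Mag 0.39 (SE 0.384), Pmp22 0.37 (SE 0.258) and Cnp 0.21 (SE 0.157), with adjusted p from 0.305 to 0.665. At an unadjusted p under 0.05 were 2 members, Prx and Mbp, and 16.2% of all tested genes. DESeq2 and limma-voom called 0 members too. For none of the 8 were the libraries of the compared groups apart, as they were for 8.5% of all tested genes.

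Of the single libraries, Tg untrained replicate 3 moved the difference most. Without it the median was 0.229, 7 of 8 log2FC were positive and Mag was at -0.07. Leaving out the 4 libraries above 10 CPM of Myh7, which include Tg untrained replicates 2 and 3 and WT untrained replicate 2, gave a median of -0.065 with 3 of 8 positive: Prx (0.337), Sox10 (0.535) and Mbp (0.046). That fit compared Tg untrained replicates 1 and 4 with WT untrained replicates 1, 3 and 4. It thus lacked the libraries with ranks 1 and 3 in the summed level of the members.

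With training, no member was called between Tg and WT muscle. In edgeR 0 of 8 members were called (0.0114% of all tested genes), 0 had p under 0.05 before adjustment (7.98% of all tested genes), and DESeq2 and limma-voom called 0. Every member had overlapping groups, while 5.7% of all tested genes had groups apart. The median log2FC was 0.19 with 6 of 8 positive (49.1% of all tested genes), from -0.12 for Cnp to 0.65 for Mag (SE 0.394, adjusted p = 0.750, edgeR). Mbp measured 7.22 ± 2.27 CPM in trained WT and 8.42 ± 4.21 CPM in trained Tg libraries (SD, n = 4). Without Tg trained replicate 3 the median was -0.178, and without WT trained replicate 4 it was 0.422. Leaving out the libraries above 10 CPM of Alb gave 0.424 with 7 of 8 positive.

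Training left the members without a call in either genotype. In WT muscle 0 of 8 were called by edgeR, DESeq2 or limma-voom (0.143% of all tested genes by edgeR), 0 had an unadjusted p under 0.05 (9.55% of all tested genes), and the median log2FC was 0.04 with 5 of 8 positive (51.3% of all tested genes). The groups of every member overlapped, while 4.39% of all tested genes had groups apart. The median in WT turned to -0.224 with 1 of 8 positive without the libraries above 10 CPM of Alb. It was -0.169 with 2 of 8 positive without WT trained replicate 4. Pmp22 was 13.7 ± 2.63 CPM without and 12.8 ± 3.87 CPM with training (SD, n = 4). In Tg muscle 0 of 8 were called by any of the 3 tools (0.0% of all tested genes by edgeR), and 7 of 8 log2FC were negative with a median of -0.42, against 50.6% positive over all genes. Ncmap had the lowest at -0.64 (SE 0.481), Pmp22 measured -0.47 (SE 0.258, adjusted p = 0.536, edgeR) and Mag 0.07 (SE 0.368). No member had an unadjusted p under 0.05, against 11.1% of all tested genes, and none had groups apart, against 9.18%. The Tg contrast used the same untrained Tg libraries as the genotype contrast without training. The median was -0.111 without Tg untrained replicate 3, -0.732 without Tg trained replicate 3 and 0.069 without the 4 libraries high in Myh7.

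**Figure D4:**
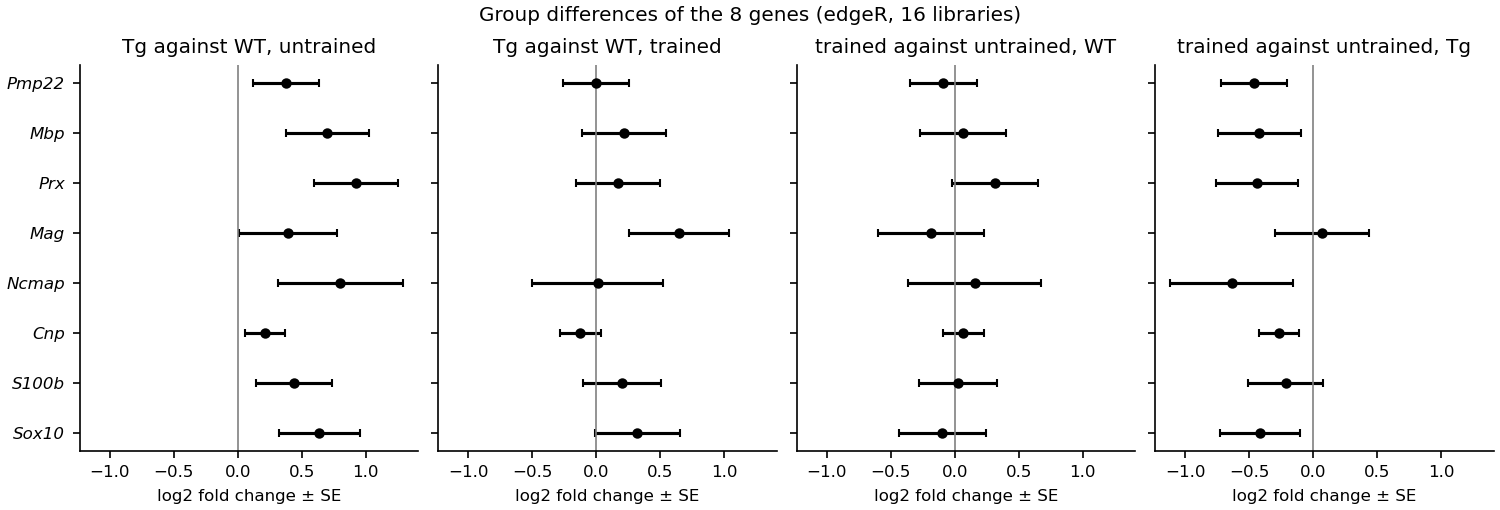
Log2 fold change (x axis) with its SE of each of the 8 genes in the 4 pairwise comparisons of groups, from edgeR over 16 libraries. All 8 points are above 0 for Tg against WT without training and 7 of 8 are below 0 for training in Tg, and none was called.

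No member was called for a difference between the training responses of the genotypes. In edgeR 0 of 8 were called for the difference (0.0515% of all tested genes), 0 had p under 0.05 before adjustment (6.03% of all tested genes), and DESeq2 and limma-voom called 0. The median was -0.36 with 1 of 8 positive (48.5% of all tested genes), Ncmap at -0.79 (SE 0.708) and Prx at -0.76 (SE 0.463). It was -0.154 without Tg untrained replicate 3, and without the 4 libraries above 10 CPM of Myh7 it turned to 0.058 with 5 of 8 positive. Averaged over the other factor, training gave a median of -0.14 with 0 of 8 positive (50.5% of all tested genes), 0 called (0.457%) and 0 at an unadjusted p under 0.05 (14.4%). That direction was lost without Tg untrained replicate 3 (0.004, 4 of 8 positive) and turned without the libraries high in Myh7 (0.129, 6 of 8 positive). Tg gave a median of 0.43 with 8 of 8 positive (49.8% of all tested genes) and 0 called (1.12%), and DESeq2 and limma-voom called 0 in both. For Tg 1 member, Prx, had an unadjusted p under 0.05 (17.2% of all tested genes), with a log2FC of 0.55 (SE 0.232, adjusted p = 0.237, edgeR). Without both libraries highest in the members, a choice made after seeing the data, the median for Tg was 0.049 with 5 of 8 positive, and without the libraries high in Myh7 it was 0.068 with 5 of 8 positive.

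**Figure D5:**
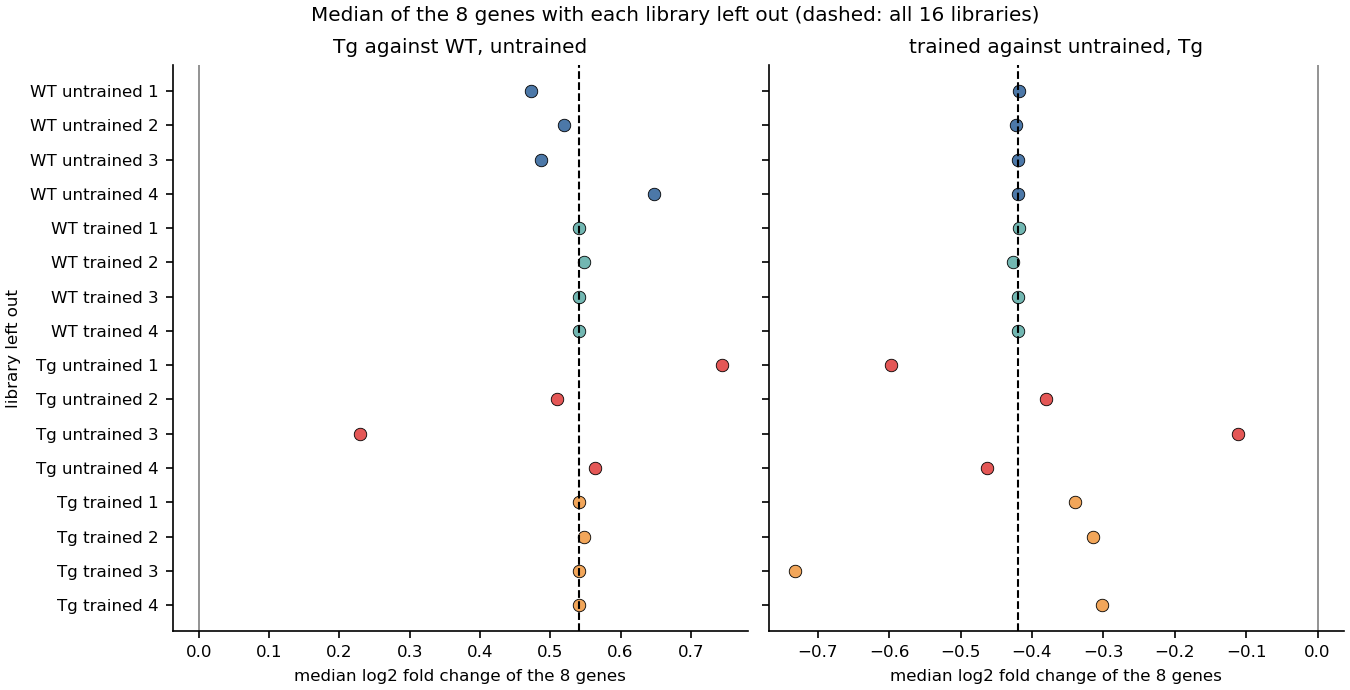
Median log2 fold change of the 8 genes (x axis) with each of the 16 libraries left out in turn (y axis), for Tg against WT without training and for training in Tg. The dashed lines are the medians with all libraries, 0.54 and -0.42. Leaving out Tg untrained replicate 3 gave 0.229 and -0.111.

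In the 2 pairwise contrasts with untrained Tg libraries the other Schwann cell genes had fitted differences mostly of the same sign as the members, again without calls. Without training 32 of the 40 tested had a higher fitted level in Tg (50.8% of all tested genes), with a median log2FC of 0.32. By edgeR 0 of the 40 were called (0.743% of all tested genes), and 13 had an unadjusted p under 0.05 (16.2%). For training in Tg muscle 4 of 40 were positive (50.6% of all tested genes) and 36 negative, with a median of -0.32. Of the 40, 0 were called (0.0% of all tested genes) and 9 had an unadjusted p under 0.05 (11.1%). The untrained Tg libraries are shared by both, and 23 of the 40 were at their highest in Tg untrained replicate 3 (8.82% of all tested genes). Values of the 40 without that library are not given here. For Tg with training 23 of 40 were positive (49.1% of all tested genes), with a median of 0.02. For training in WT 26 of 40 were positive (51.3% of all tested genes), with a median of 0.04. In the genotype comparison without training Gjc3, a connexin gene, measured a log2FC of 0.66 (SE 0.251). Nfasc, the gene of an adhesion protein of the node, was at 0.82 (SE 0.319), and Drp2 at 0.68 (SE 0.291). Among transcription factors Foxd3 was at 0.72 (SE 0.280) and Pou3f1, which drives the step to myelination, at 0.88 (SE 0.377). Ugt8a, the galactosyltransferase of cerebroside synthesis, was at 1.02 (SE 0.447), while Fasn, fatty acid synthase, which fat cells also make, was at -0.49 (SE 0.242).

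Receptors for neuregulin, the axonal signal for myelination, had the smallest p of these lists for Tg without training. Erbb2, the signalling partner that other cell types of muscle also express, measured 1.85 ± 0.168 CPM in untrained WT, 2.10 ± 0.189 in trained WT, 2.42 ± 0.151 in untrained Tg and 1.81 ± 0.150 in trained Tg libraries (SD, n = 4). Its untrained Tg libraries (2.25 to 2.60 CPM) lay above all untrained WT (1.72 to 2.09 CPM) and all trained Tg ones (1.65 to 2.00 CPM), and groups were apart for 8.5% and 9.18% of all tested genes in these comparisons. Erbb2 had a log2FC of 0.38 (SE 0.104, adjusted p = 0.0965, edgeR) for Tg without training and -0.42 (SE 0.104, adjusted p = 0.161, edgeR) for training in Tg. The difference between its training responses in Tg and WT was -0.60 (SE 0.148, adjusted p = 0.324, edgeR). Erbb3, the neuregulin receptor of Schwann cells, measured 0.42 (SE 0.132, adjusted p = 0.143, edgeR) for Tg without training. Neither was called.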

How the data were processed

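Skeletal muscle RNA of 16 libraries was sequenced. RNA was extracted with RNeasy, per the labels' protocols, and a SMARTer kit for mRNA gave the libraries. The authors deposited RSEM expected counts per gene, not normalized. Per the submitters' processing notes STAR 2.7.8a, RSEM 1.3.2 and build mm10 were used, for which an annotation release was not given in the sources used here. Reads shared between genes are split by RSEM, and strand was not stated, so overlapping genes cannot be told apart. Of the values 12.48% were not whole, and counts were rounded.

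Groups and replicate numbers came from the sample titles. Genes were kept with edgeR's filterByExpr, scaled with TMM (factors 0.924 to 1.285) and fitted with 1 mean for each group in a single quasi-likelihood model (edgeR 4.0.16, R 4.3.3). The 7 contrasts were tested with Benjamini-Hochberg adjustment over 17490 genes and called at an adjusted p under 0.05. DESeq2 1.42.0 and limma-voom 3.58.1 were among the alternatives. Positions and union exon lengths came from GENCODE M21 (GRCm38). The pipeline was tested on simulated data. The members and lists were chosen with earlier results of these data known. All members were named, with 2 genes of smallest p, without training, of each other list, except that some genes are not reported here. Other genes were chosen after their values were seen.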

Additional observations from a re-analysis of the deposited data

Results flagged for a closer look

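Of 36 sets of 4 libraries tested (8 genes and their sum in 4 groups), 5 had a library whose gap to the others passed Dixon's 95% value of 0.829, where chance gives about 1 in 20. All 5 were Tg trained replicate 3: Mbp at 14.7 CPM, Pmp22 at 19.8 CPM, Prx at 8.02 CPM, Ncmap at 0.649 CPM and the sum of the 8 genes at 51.0 CPM. The other trained Tg libraries lay between 5.98 and 6.59 CPM for Mbp and between 3.88 and 4.03 CPM for Prx. These 5 values are not independent, since the genes share the library. Myh7 was 2.5 CPM and Alb 0.0393 CPM in it.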

How the results depend on the processing

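In all alternatives run, edgeR or the tool named called 0 members in each of the 7 contrasts, with a lowest adjusted p of 0.0964 (Prx, DESeq2, Tg without training). The alternatives were RLE scaling, other filters, DESeq2, limma-voom, robust dispersion, the replicate block, each library left out, only the groups compared, and the libraries above 10 CPM of Myh7 or of Alb left out. A filter of 1 CPM in 4 libraries kept 4 of the 8 members. An alternative median counted as moved past 0.439, the SD of the mean member level within groups. Without the libraries above 10 CPM of Myh7 the medians moved to -0.065 for Tg without training and 0.069 for training in Tg, and in the first Pmp22 (-0.112), S100b (-0.018), Mag (-0.379), Cnp (-0.12) and Ncmap (-0.377) turned negative. With single libraries left out Mag ran from -0.07 (Tg untrained replicate 3) to 0.638 in that contrast, and was at -0.075 without both libraries highest in the members. With single libraries left out the medians ran from 0.229 to 0.744 (Tg, untrained), -0.178 to 0.422 (Tg, trained), -0.169 to 0.14 (training in WT), -0.732 to -0.111 (training in Tg), -0.639 to -0.154 (difference), -0.317 to 0.004 (training averaged) and 0.232 to 0.547 (Tg averaged). Same-numbered libraries did not deviate together in every pair (r from -0.153 to 0.176), so the numbers were not taken to pair the samples. Between untrained and trained Tg libraries all 4 values were positive (0.058 to 0.176), 2 of them over 0.1. With the replicate block the median was 0.507 for Tg without training and -0.412 for training in Tg, no call of a member changed, and 66 of all genes were called for Tg without training. Between alternatives the count of all genes called for Tg without training ran from 32 (without libraries high in Myh7) to 442 (DESeq2), against 130. Depth limits Mag, Ncmap, Sox10 and S100b most. The causes were not tested.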

Other observations

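Prph, which encodes peripherin, an intermediate filament of peripheral axons, was the only gene of the 9 axon and motor neuron markers to be called in any contrast, and it was picked out after its values were seen. It measured 0.193 ± 0.0797 CPM in untrained WT, 0.0837 ± 0.0402 in trained WT, 0.398 ± 0.0903 in untrained Tg and 0.295 ± 0.124 in trained Tg libraries (SD, n = 4), from 2 to 25 counts a library. Tg libraries lay above WT libraries at each training state, at 0.301 to 0.491 against 0.0888 to 0.283 CPM without training and 0.193 to 0.472 against 0.0463 to 0.125 CPM with training. Groups were apart for 8.5% of all tested genes without and 5.7% with training. Its log2FC for Tg averaged over training was 1.40 (SE 0.274, adjusted p = 0.0231, edgeR, where 1.12% of all tested genes were called), from 1.17 to 1.52 over the alternatives. The call was lost without any of WT trained replicate 3, Tg trained replicates 2, 3 or 4 and Tg untrained replicate 2 (adjusted p of 0.0501 to 0.0548), without the 4 libraries high in Myh7 (adjusted p = 0.0925), and without both libraries highest in the members (adjusted p = 0.0741). Unlike the members, Prph was not highest in Tg untrained replicate 3 (0.345 CPM) but in replicate 2 of that group (0.491 CPM).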
